A study of Homo sapiens with 72 samples.

Results

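Gene expression was compared between alpha-particle-irradiated and sham-irradiated IMR-90 cells 2 h after exposure, across all genes on the array. IMR-90 is an established strain of normal human lung fibroblasts, used here at early passage, so the values describe cultures of 1 strain and not lung tissue. The irradiated cells lay on thin Mylar film and received 0.5 Gy (50 cGy) of 4He ions at 125 keV per micron, a beam that stood in for alpha particles, while control dishes received a dose of 0. Bystander cells shared the dish of the irradiated cells but lay on thicker film that stops the particles. Of the 72 arrays in the series, 8 made up the comparison, chosen by their labels: 4 irradiated and 4 control, with 1 of each in each of 4 independent experiments. The 4 bystander arrays of 2 h entered the same fit.

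Alpha particles lay down dense ionization along a short track and leave clustered DNA breaks. Broken DNA activates the kinase ATM, which stabilises the transcription factor p53. p53 in turn switches on inhibitors of the cell cycle such as CDKN1A, genes of cell death, and its own inhibitors MDM2 and PPM1D. The same stress can activate NF-κB, which drives cytokine genes, and the metal-sensing factor MTF1, which drives the metallothioneins, small cysteine-rich proteins that bind zinc and copper. Genes of DNA replication are driven by E2F factors.

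Promoters of 3 responding genes are shown because each belongs to a list with several members higher after irradiation. The sequences are from RefSeq (GRCh38.p14) and run 5′ to 3′ over 300 bases that end 50 bases into the gene. In the first pair, capitals mark matches on either strand to the cores of the metal response element, TGCACNC or TGCGCNC. In the last, capitals mark the E2F core TTTNGCGC.
MT2A, chr16:56608334-56608633, plus strand: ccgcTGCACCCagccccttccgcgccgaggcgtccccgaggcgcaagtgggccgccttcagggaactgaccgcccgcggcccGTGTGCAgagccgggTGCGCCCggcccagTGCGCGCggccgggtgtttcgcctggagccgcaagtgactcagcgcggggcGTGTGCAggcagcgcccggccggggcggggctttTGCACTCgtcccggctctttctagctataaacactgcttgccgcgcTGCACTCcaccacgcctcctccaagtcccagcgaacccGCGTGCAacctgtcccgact
MT1X, chr16:56682220-56682519, plus strand: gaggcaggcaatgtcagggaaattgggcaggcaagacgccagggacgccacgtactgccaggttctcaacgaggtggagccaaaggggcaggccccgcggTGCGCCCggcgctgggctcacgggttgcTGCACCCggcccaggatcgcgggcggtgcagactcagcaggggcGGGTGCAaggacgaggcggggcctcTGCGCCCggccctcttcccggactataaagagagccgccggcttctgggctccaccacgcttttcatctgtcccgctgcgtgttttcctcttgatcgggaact
CDC6, chr17:40287629-40287928, plus strand: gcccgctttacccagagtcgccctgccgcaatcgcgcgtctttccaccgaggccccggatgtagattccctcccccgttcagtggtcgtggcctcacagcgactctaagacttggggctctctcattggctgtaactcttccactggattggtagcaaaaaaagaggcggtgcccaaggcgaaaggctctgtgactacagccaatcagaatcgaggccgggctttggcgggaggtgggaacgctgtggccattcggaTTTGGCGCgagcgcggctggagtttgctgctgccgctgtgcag
The MT2A window held 8 matches and the MT1X window 4. Of 35116 promoters of this length, 29.6% held at least 1 metal response core and 2.30% held 3 or more. All 4 metallothionein promoters in the table (MT1B, MT1H, MT1X and MT2A) held 3 or more. Of the 40 promoters of the S phase genes described below, 23 (57.5%) held at least 1 metal response core and 7.5% held 3 or more. The E2F core was in 1.79% of all promoters and in 15 of these 40 (37.5%). A match is a stretch of letters and was not tested for binding.

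Each array carried 41000 gene probes, of which 25238 were tested and gave values for 13012 named genes. Irradiated arrays were somewhat dimmer than control arrays. Before scaling, the 75th percentile of intensity was 800, 859, 890 and 671 in irradiated replicates 1 to 4 and 1110, 1092, 1276 and 763 in control replicates 1 to 4. Between 65.8% and 67.9% of spots stood well above background on irradiated arrays, against 66.7% to 70.9% on control arrays. All arrays were therefore scaled to a common 75th percentile of 1000, and levels below are log2 of the scaled intensity. A log2 ratio is the irradiated minus the control level within an experiment, averaged over the 4 experiments, with the SD over those 4 ratios or the standard error (SE) of the fit.

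Experiment 4 stood apart from the other experiments. The SD of its log2 ratios over probes was 0.713, against 0.396, 0.324 and 0.345 in experiments 1, 2 and 3, and 3472 of its probes changed more than 2-fold, against 497, 268 and 384. Across probes, which are not independent replicates, its ratios correlated with those of the other experiments at r between 0.187 and 0.244, whereas the other experiments correlated with each other at 0.367 to 0.393. Control replicate 4 differed from the mean of the other controls by an SD of 0.730, compared with 0.421 to 0.455 for the others. Irradiated and bystander cells of experiment 4 differed from each other by an SD of 0.323, against 0.234 to 0.269 in the other experiments. Its irradiated and control arrays lay on 1 slide, as did those of experiments 1 and 3, while those of experiment 2 lay on different slides. In experiment 4 the median ratio also moved with the length of the gene, from −0.26 in the shortest quartile of genes to 0.04 in the longest. It moved the other way, by less, in experiments 1 (0.11 to −0.04), 2 (0.03 to −0.01) and 3 (0.09 to −0.02). The part of these differences in the results was not tested, and counts are given below with and without each experiment.

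At an adjusted p below 0.1 (limma, Benjamini-Hochberg over all probes tested), 1452 probes (5.75%) differed between irradiated and control cells. Of these, 776 (3.07%) were higher and 676 (2.68%) were lower after irradiation. Counted by gene, with each gene represented by its probe of highest mean level, 517 genes (3.97%) were higher and 363 (2.79%) were lower. In 305 genes (2.34%) all 4 irradiated arrays lay above all 4 control arrays, and in 260 genes (2%) all lay below. The sign was the same in all 4 experiments for 1449 of the 1452 probes. The ratio was largest in experiment 4 for 484 of the 776 higher and for 466 of the 676 lower probes.

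The number of probes called rested on the arrays in the fit. Without experiment 1, 2 or 3, 28, 25 and 61 probes passed, and without experiment 4, 4915 passed. Of the 13012 genes, 16, 16, 40 and 1649 were higher and 1, 0, 4 and 1096 lower in these 4 fits, the background for the counts given below without each experiment. With only the irradiated and control arrays in the fit 34 probes passed, all higher, and with the slide as a fixed block 31 passed. The SE and p-values of the main fit rest on 1 estimate of spread shared by the 3 groups. Over probes, irradiated minus bystander levels had SDs of 0.234 to 0.323 by experiment, against 0.324 to 0.713 for irradiated minus control. The part of this unequal spread in the p-values was not tested. Slide and experiment overlap in part, so the fit with the slide as a fixed block has little power, here and below. The split also depended on scaling. Without scaling the median ratio of all probes was −0.38 and 68 probes were higher against 6844 lower, while centring on the spike-in probes moved the median by 0.10 and left 141 higher against 21 lower. By gene, 44 of 13012 were higher and 3842 lower without scaling, with a median of −0.39, the background for all list counts given below without scaling. Changes below are relative to the common 75th percentile. A set of 24 probes, all higher, passed whichever experiment was left out. They comprised 11 metallothionein probes, probes for CDKN1A (2 probes), GDF15, PLK3, PPM1D, AEN, IER5, GDNF, MMP3, SERPINB2 and NEFM, and 2 probes matched to no gene.

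**Figure D1:**
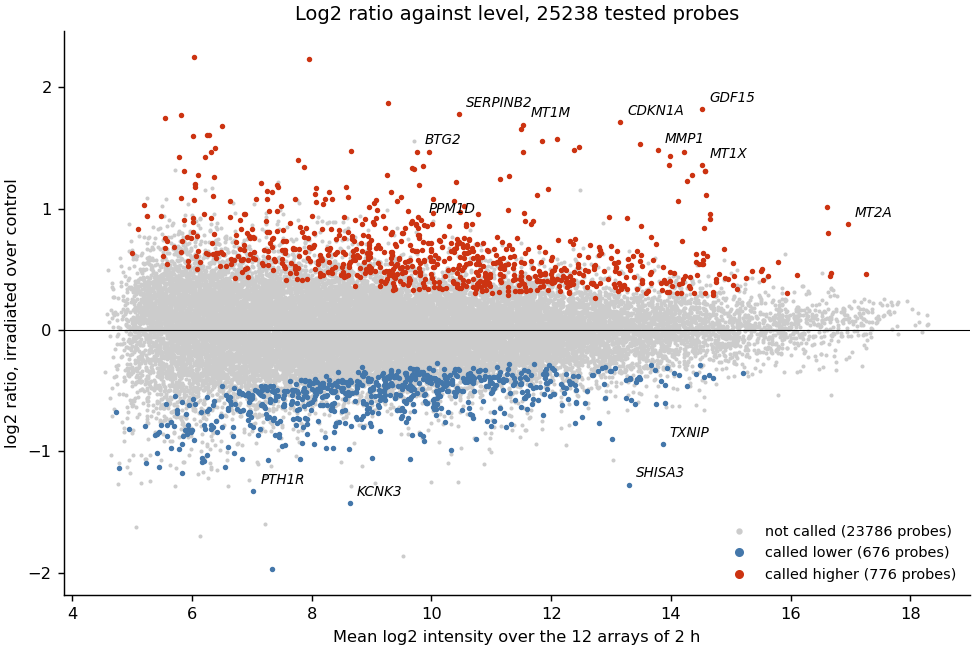
Log2 ratio of irradiated over control cells (vertical axis) against the mean log2 intensity over the 12 arrays of 2 h (horizontal axis), 1 point per tested probe. The 776 probes called higher are red, the 676 called lower are blue, and GDF15 and CDKN1A combine a high level with log2 ratios of 1.82 and 1.72.

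Targets of p53 made up 5 of the 15 genes with the highest ratios. Of 37 tested members of the p53 list, 16 were higher and 0 lower, against 3.97% and 2.79% of all genes, and their median log2 ratio was 0.49, against −0.01 for all genes. In 13 of the 37 all irradiated arrays lay above all control arrays, against 2.34% of genes. The list median was similar in the 4 experiments, at 0.51, 0.46, 0.50 and 0.41. The number of members higher was 5, 5, 6 and 25 without experiments 1, 2, 3 and 4 in turn (1 lower in the last), and 6 with the slide as a fixed block. Without scaling 5 were higher and 3 lower, with a median of 0.11.

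CDKN1A, which encodes the cyclin-dependent kinase inhibitor p21 and lies on chromosome 6, had levels of 13.96, 13.70, 14.84 and 14.41 on the irradiated arrays and of 12.08, 11.56, 13.21 and 13.19 on the control arrays. The groups did not overlap, and each irradiated culture exceeded its own control, by a log2 ratio of 1.72 ± 0.39 (SD, n = 4; adjusted p = 0.00044, limma). Experiment 4 gave the smallest ratio, 1.22. The other CDKN1A probe gave 1.87. BTG2, an antiproliferative gene, stood at 10.73, 10.58, 11.53 and 10.39 after irradiation and at 9.12, 8.90, 9.59 and 9.73 in controls. It too separated the groups, with a ratio of 1.47 (SE 0.17, adjusted p = 0.0055), and its lowest experiment was again experiment 4. BTG2 was no longer called without experiment 1 (1.42, adjusted p = 0.16) or 2 (1.40, adjusted p = 0.16). It was also lost with the slide as a fixed block (1.40, adjusted p = 0.13).

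GDF15, a secreted stress cytokine of the TGF-beta superfamily, headed the 15 highest genes, each read by its brightest probe. Its level rose from 13.21, 13.06, 14.08 and 14.31 in controls to 15.51, 14.76, 15.56 and 16.12 in irradiated cells, with no overlap, a ratio of 1.82 and an adjusted p of 0.0020. PLK3, a stress-responsive polo-like kinase, was at 12.92, 12.98, 13.11 and 13.93 in irradiated cells and at 11.48, 11.69, 11.42 and 12.33 in controls, a ratio of 1.50 (SE 0.11, adjusted p = 0.00017). GADD45A, which slows the cycle at G2 after damage, had a ratio of 1.48 (adjusted p = 0.015) and passed without experiment 4 but not without experiment 1, 2 or 3.

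PPM1D, the phosphatase WIP1 that turns p53 signalling off, was at 10.39, 10.54, 10.55 and 10.17 in irradiated cells and at 9.56, 9.63, 9.50 and 9.34 in controls. Its 4 ratios lay between 0.83 and 1.05, so that the spread between experiments was small beside the difference (0.90 ± 0.10 SD, adjusted p = 0.0017). AEN, an exonuclease that acts in p53-dependent death, changed by 0.97 ± 0.10 (SD, n = 4; adjusted p = 0.0023), with ratios of 0.89, 0.93, 1.11 and 0.93. SESN1, a sestrin that restrains mTORC1, had a ratio of 0.65 (adjusted p = 0.026) and was called in 1 of the 4 fits with an experiment left out. The other members called were MDM2 at 0.95, TNFRSF10A at 0.94, PMAIP1 at 0.67, BLOC1S2 at 0.65, PHLDA3 at 0.62, TIGAR at 0.57, TNFRSF10B at 0.55 and TRIAP1 at 0.55. Among those that did not pass, the death genes FAS and BAX had 0.51 (adjusted p = 0.12) and 0.12 (adjusted p = 0.69). BBC3, which encodes the death protein PUMA, was read differently by its probes. The brightest BBC3 probe gave 0.11 and was not called, whereas the other probes gave 1.56 and 1.18 and were.

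Irradiated cells were also compared with the bystander cells of the same dish, which asks what differed in the cells that lay in the path of the particles. Of the 25238 probes 11 (0.0436%) differed, all higher in irradiated cells, and they read 8 named genes and 1 unnamed transcript. Of the 8 genes, 6 are p53 list members: CDKN1A (1.51), BTG2 (1.67), PPM1D (0.83), AEN (0.92), SESN1 (0.90) and PLK3 (0.78), all as log2 of irradiated over bystander. The others were IER5, an immediate early gene (0.87, with −0.14 and no call at its other probe), and GDNF, a neurotrophic factor (1.88), whose brighter probe gave −0.03 and was not called. Bystander levels of CDKN1A were 12.21, 11.95, 13.32 and 13.41, 0.21 above the controls on average and below every irradiated array. BTG2 in bystanders stood at 8.91, 8.87, 9.69 and 9.09, and PPM1D at 9.71, 9.76, 9.52 and 9.33, also below every irradiated array. PLK3 was itself higher in bystanders than in controls, by 0.72 (adjusted p = 0.064), and was the 1 member of the p53 list called there, where 0.214% of all probes passed (0.194% higher). The PLK3 call was lost without experiments 1, 2 or 3 (adjusted p = 0.38, 0.53 and 0.24), without scaling (0.30), with spike-in centring (0.31), with the slide as a fixed block (0.40) and with no replicate block (1.00). In these fits the bystander ratio of PLK3 was, in the same order, 0.78, 0.73, 0.76, 0.45, 0.86, 0.85 and 0.72. Without experiment 4, 8 members of the list were called in bystanders.

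Over the p53 list the median log2 difference from bystanders was 0.35, and it was positive for 32 of 37 members. The median bystander ratio to control was 0.05, beside 0.49 in irradiated cells, with the same controls in both. GDF15 was 1.09 above bystanders (adjusted p = 0.25) and GADD45A 1.16 (adjusted p = 0.33), so neither passed. No probe of this comparison passed without experiment 1, 2 or 3 or with the slide as a fixed block (by limma, 139, 173, 324 and 370 probes in these fits had an unadjusted p below 0.05), and 19 passed without experiment 4.

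**Figure D2:**
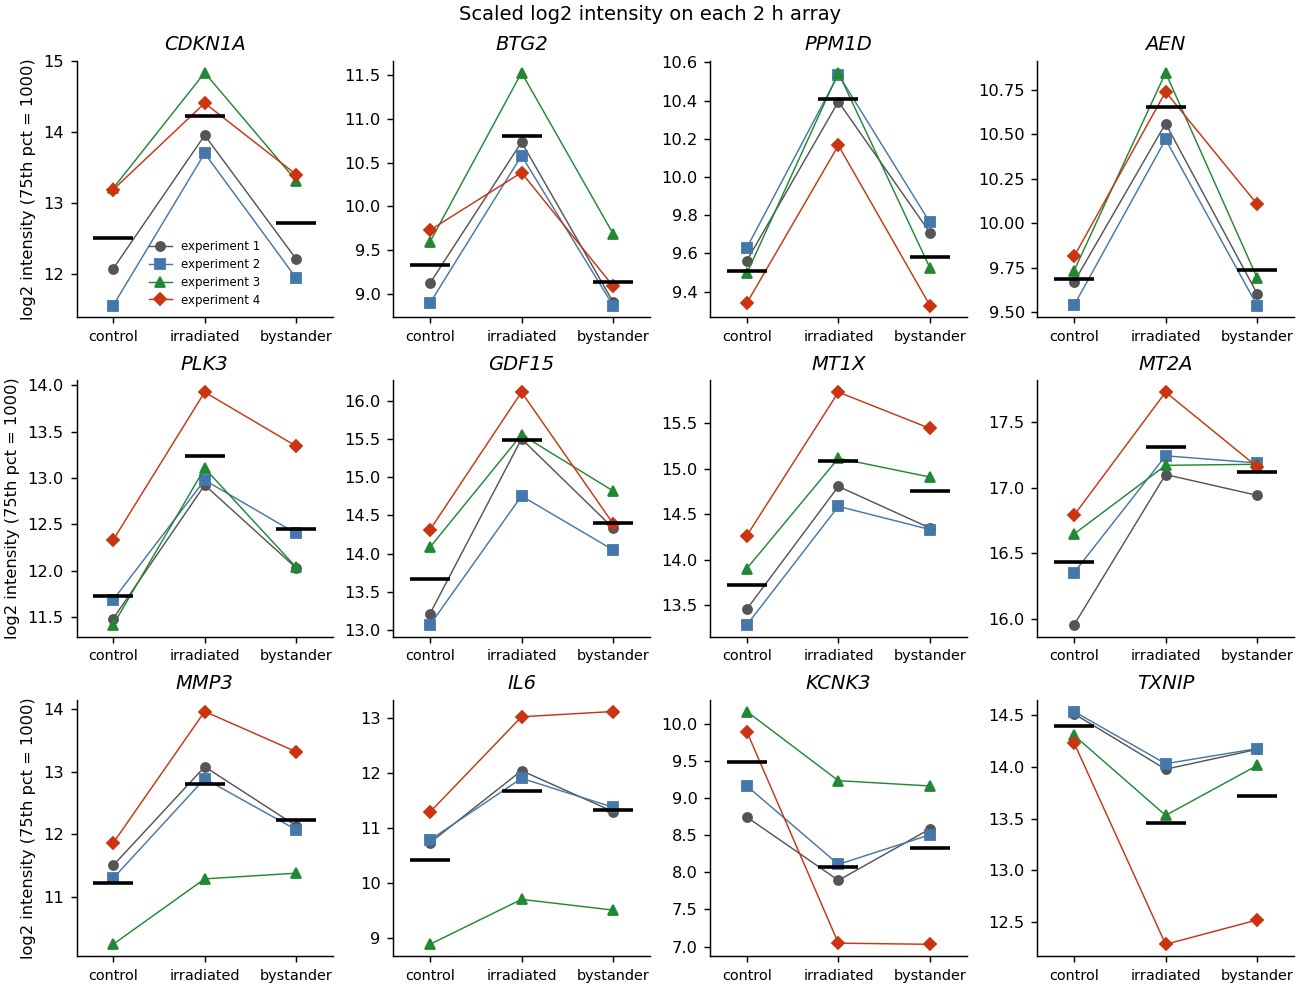
Scaled log2 intensity (vertical axes) of 12 genes on the control, irradiated and bystander arrays of 2 h, 1 panel per gene, with a marker and colour for each of the 4 experiments, lines joining arrays of 1 experiment and black bars at the group means. For CDKN1A, BTG2, PPM1D and AEN the bystander means lie within 0.21 of the control means, MT1X and MT2A are high in irradiated and bystander cells, and KCNK3 and TXNIP fall most in experiment 4.

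The metallothioneins rose as a family. All 15 tested probes, which read 10 MT1 and MT2 genes on chromosome 16, were higher in irradiated cells, against 3.07% of all probes, at log2 ratios from 0.80 to 1.69 with a median of 1.36. In 14 of the 15 all irradiated arrays lay above all control arrays, against 2.34% of genes. MT1X was at 14.80, 14.59, 15.11 and 15.84 in irradiated cells and at 13.46, 13.28, 13.90 and 14.26 in controls, a ratio of 1.36 ± 0.16 (SD, n = 4; adjusted p = 0.00013). MT2A was at 17.10, 17.24, 17.17 and 17.73 against 15.96, 16.35, 16.65 and 16.79, a ratio of 0.87 (adjusted p = 0.018). Every irradiated array exceeded every control array for both genes. MT1M had the largest ratio, 1.69 (SE 0.15, adjusted p = 0.00096), and MT1E had 1.53 (SE 0.09, adjusted p = 0.00013). These genes are near-identical in sequence, so a probe may also read transcripts of its neighbours and the 15 probes are not 15 separate results. The study had also singled out this family in these samples, so its direction is not independent evidence.

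The family median was 1.35, 1.30, 1.11 and 1.55 in experiments 1 to 4, and 11 of the 15 probes passed whichever experiment was left out. MT1F and MT2A were among the rest, passing in 1 and 2 of the 4 fits. The metallothioneins were also high in bystanders. The bystander ratio to the same controls was 0.65 to 1.45 and 12 of 15 probes passed, against 0.214% of all probes. Without experiments 1, 2, 3 and 4 in turn, 8, 0, 11 and 15 of the 15 passed, where 8, 0, 18 and 3101 of all probes did. None of the 15, nor any other probe, passed without scaling, with the slide as a fixed block or with no replicate block (by limma, 2342 probes without experiment 2 and 4927, 2820 and 936 in these 3 fits had an unadjusted p below 0.05). The ratio of each of the 15 stayed positive in every alternative run. Irradiated cells were 0.01 to 0.44 above bystanders, and 0 of the 15 probes passed that test.

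Of 26 tested members of the oxidative stress and metal list, which holds the metallothioneins, 17 were higher and 0 lower, against 3.97% and 2.79% of all genes, and the list median was 0.57. Without scaling 9 were higher and 3 lower, with a median of 0.19. Besides the metallothioneins these were SLC7A11, the cystine carrier (1.02), SRXN1, which repairs peroxiredoxins (0.73), OSGIN1 (0.67), HMOX1, which breaks down heme (0.55), SLC39A14, a zinc and iron carrier (0.51), GCLM of glutathione synthesis (0.42), PRDX1 (0.42) and the chaperone HSPH1 (0.31). Without experiments 1, 2, 3 and 4 in turn the count of members higher was 7, 7, 8 and 20, and with the slide as a block it was 7. The metallothioneins MT1A, MT1B, MT1E, MT1G, MT1H, MT1M and MT1X passed in all 4 of these fits, and each of the 8 other genes just named in 1.

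Cytokine and NF-κB feedback genes were higher in 10 of 31 tested members and lower in 0, against 3.97% and 2.79% of all genes, with a median of 0.47. Without scaling 3 were higher and 4 lower, with a median of 0.09. IL6 was at 12.05, 11.91, 9.70 and 13.03 in irradiated cells and at 10.73, 10.78, 8.88 and 11.29 in controls. The groups overlapped because experiment 3 was low in both, yet IL6 rose within each experiment, by 1.31, 1.12, 0.82 and 1.74 (mean 1.25, adjusted p = 0.021). PTGS2, the inducible cyclooxygenase, had a ratio of 1.27 (adjusted p = 0.012) and separated the groups. CXCL8, which attracts neutrophils, had 1.16 (adjusted p = 0.039). LIF, a cytokine of the IL6 family, had 0.92 (adjusted p = 0.089), with 0.76 at its dimmer probe (adjusted p = 0.18). Without experiment 4 the LIF ratio was 0.56 (adjusted p = 0.016). The other members called were IL11 at 0.84, CXCL1 at 0.56, RELB at 0.55, TNFAIP2 at 0.50, NFKB1 at 0.47 and NFKBIE at 0.46.

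Several genes that the study describes on their own did not pass at 2 h. IL1B had a ratio of 0.41 (adjusted p = 0.12), IL33 0.72 (adjusted p = 0.12), CXCL2 0.38 (adjusted p = 0.24) and CXCL5 0.28 (adjusted p = 0.17). CXCL3 had 0.40 at its brighter probe (adjusted p = 0.30), while its other probe was called. The histone demethylase KDM5B had −0.19 (adjusted p = 0.24). Over the cytokine list bystander cells had a median ratio of 0.46, 0 members differed between irradiated and bystander cells, and CXCL8 stood at 1.29 in bystanders beside 1.16 in irradiated cells. The count of members higher was 0, 0, 2 and 15 without experiments 1, 2, 3 and 4 (2 lower in the last) and 0 with the slide as a block, and the list median was 0.05 in experiment 3 and 0.86 in experiment 4.

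MMP3 (stromelysin), a secreted protease, was at 13.08, 12.89, 11.29 and 13.96 after irradiation and at 11.51, 11.30, 10.25 and 11.86 in controls, a ratio of 1.57 (SE 0.18, adjusted p = 0.0043), the groups overlapping through the low values of experiment 3. SERPINB2, an inhibitor of plasminogen activators, had a ratio of 1.78 (adjusted p = 0.0023). Both passed whichever experiment was left out. MMP1, the interstitial collagenase, had 1.48 (adjusted p = 0.011) with no overlap, and passed in 2 of the 4 fits. CLDN1, a tight junction protein, had 1.68 (adjusted p = 0.034) and was dim in experiment 3, at 4.68 against a control level of 3.37. The other genes among the 15 highest were ANXA10, a calcium-binding annexin (1.75, adjusted p = 0.062), LOC284344 (1.60) and the pregnancy-specific glycoproteins PSG8 (1.61) and PSG6 (1.50), which resemble each other so closely that their probes may share transcripts. ANXA10 was dim, and its largest ratio, 3.39 in experiment 1, came with a control level of 2.72. It passed in 1 of the 4 fits with an experiment left out, as did CLDN1 and LOC284344, and PSG8 and PSG6 in 2. Bystander ratios to the same controls were 1.42 for SERPINB2 (limma adjusted p = 0.027) and 1.00 for MMP3 (0.098). Those of ANXA10 (1.44), CLDN1 (1.13), PSG6 (1.01), MMP1 (0.97), PSG8 (0.96) and LOC284344 (0.63) were positive but not called. None of these genes passed between irradiated and bystander cells. No probe passed in bystanders without scaling or without experiment 2.

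Immediate early genes, which respond to stress within minutes to hours, were higher in 10 of 36 tested members and lower in 0, against 3.97% and 2.79% of all genes, with a median of 0.46. Without scaling 2 were higher and 2 lower, with a median of 0.08. IER5 had levels of 14.87, 14.98, 14.54 and 15.43 against 13.46, 13.63, 13.40 and 14.44 in controls, a ratio of 1.22 ± 0.19 (SD, n = 4; adjusted p = 0.00096) without overlap. Its other probe, which is nearly as bright, gave 0.03 and was not called. ATF3, a stress transcription factor, had 1.47 (adjusted p = 0.044), with 0.66 and 0.77 in experiments 1 and 2 and 1.94 and 2.49 in experiments 3 and 4. Its dimmer probe gave 0.42 (adjusted p = 0.54) and was not called. KLF2, a Krüppel-like factor, had 1.11 (adjusted p = 0.031) and DUSP2, a phosphatase of MAP kinases, 1.09 (adjusted p = 0.038). The other members called were EGR3 (1.08), DUSP5 (0.98), NR4A1 (0.91), EGR2 (0.65), IER3 (0.63) and IER2 (0.41). Without experiments 1, 2, 3 and 4 the count was 1, 1, 3 and 16 (1 lower in the last), with IER5 called each time, and the list median was 1.02 in experiment 4 against 0.19 to 0.36 in the others. Bystander cells had a median ratio of 0.38 for the list, positive for 32 of the 36 members, with 0 called. The median difference of irradiated from bystander cells was 0.07, and 1 member, IER5, passed.

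Of 33 tested members of the list of S phase and DNA replication genes 15 were higher and 0 lower, against 3.97% and 2.79% of all genes. All 33 had a positive ratio, and the median was 0.58, or 0.20 with 1 member higher without scaling. CDC6, which loads the replicative helicase, was at 10.57, 10.52, 8.43 and 11.01 in irradiated cells and at 9.72, 9.87, 8.02 and 9.55 in controls. Experiment 3 was low in both groups, and the ratios were 0.85, 0.65, 0.40 and 1.47 (mean 0.84, adjusted p = 0.067). E2F7, a repressor of E2F targets, had 1.34 (adjusted p = 0.054), CDC45, a part of the helicase, 0.99 (adjusted p = 0.077), and CDT1, which acts with CDC6, 0.90 (adjusted p = 0.015). The other members called were E2F2, UHRF1, TK1, ORC6, MCM7, E2F1, RRM1, RFC5, GINS3, CCNE1 and MCM3, from 0.81 down to 0.36. The median of the list was 0.61, 0.48, 0.20 and 0.89 in experiments 1 to 4. The count of members higher was 0, 0, 3 and 27 without each experiment in turn, and 0 with the slide as a block or with only the 2 groups in the fit. The ratio of irradiated to bystander cells was positive for 32 of the 33 members with a median of 0.16, and 0 passed.

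Genes of G2 and mitosis were higher in 14 of 39 tested members and lower in 0, against 3.97% and 2.79% of all genes, with a median of 0.36. Without scaling the median was −0.02 (0 higher, 2 lower), beside −0.39 for all genes (44 higher and 3842 lower of 13012). CENPE, a kinetochore motor, had 0.84 (adjusted p = 0.059), the kinase CDK1 0.73 (adjusted p = 0.090), HMMR 0.70 (adjusted p = 0.039) and the kinetochore protein CENPF 0.64 (adjusted p = 0.033), whose dimmer probe gave 0.21 (adjusted p = 0.59). In 9 of the 39 all irradiated arrays lay above all controls, against 2.34% of all genes. The other members called were KIF23, DLGAP5, PRC1, BUB1, UBE2C, BIRC5, TPX2, PTTG1, CCNB2 and CDC20, from 0.61 down to 0.35. Bystander cells had a median of 0.44 for the list, 10 of 39 members were higher in irradiated than in bystander cells by sign, and 0 passed. Without experiments 1, 2, 3 and 4 the count of members higher was 0, 0, 1 and 20. In RNA from a whole culture, a change in the share of cells at a cycle stage and a change in RNA per cell cannot be told apart.

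Among genes of DNA repair and checkpoints 8 of 37 tested members were higher and 0 lower, against 3.97% and 2.79% of all genes, with a median of 0.21. Without scaling the median was −0.18 (0 higher, 5 lower), beside −0.39 for all genes (44 higher and 3842 lower of 13012). Those with the larger ratios included BRCA1 (0.93, adjusted p = 0.050), FANCD2 of crosslink repair (0.87, adjusted p = 0.012) and RAD54L of homologous recombination (0.73, adjusted p = 0.070), and CHEK1, FANCI and LIG1 were also called. The count was 0, 0, 1 and 14 without experiments 1, 2, 3 and 4, with 2 lower in the last. Of 15 genes of the unfolded protein and amino acid stress response 3 were higher: SDF2L1 of the endoplasmic reticulum (0.71, adjusted p = 0.022), PPP1R15A, which restores translation (0.61, adjusted p = 0.020), and CHAC1, which degrades glutathione (0.55, adjusted p = 0.015). Of all genes 3.97% were higher. Of those 15, 0, 0, 1 and 6 were higher without each experiment in turn (2 lower without experiment 4). Without scaling 0 were higher and 3 lower, with a median of −0.22 in place of 0.16, beside −0.39 for all genes.

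Of 18 early targets of TGF-beta and BMP 3 were higher and 1 was lower, against 3.97% and 2.79% of all genes. Their median was −0.16, −0.06, −0.03 and 0.44 in experiments 1 to 4, 0.05 over the mean ratios and −0.06 without experiment 4 (4 higher, 3 lower). Without scaling it was −0.34 (2 higher, 3 lower), beside −0.39 for all genes. Among the higher ones, INHBA, the activin A subunit, had 1.06 (adjusted p = 0.038) and the ligand BMP2 0.89 (adjusted p = 0.021). SMAD6, an inhibitor of BMP signalling, was lower at −0.51 (adjusted p = 0.089). None of these 3 passed in more than 1 of the 4 fits with an experiment left out.

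**Figure D3:**
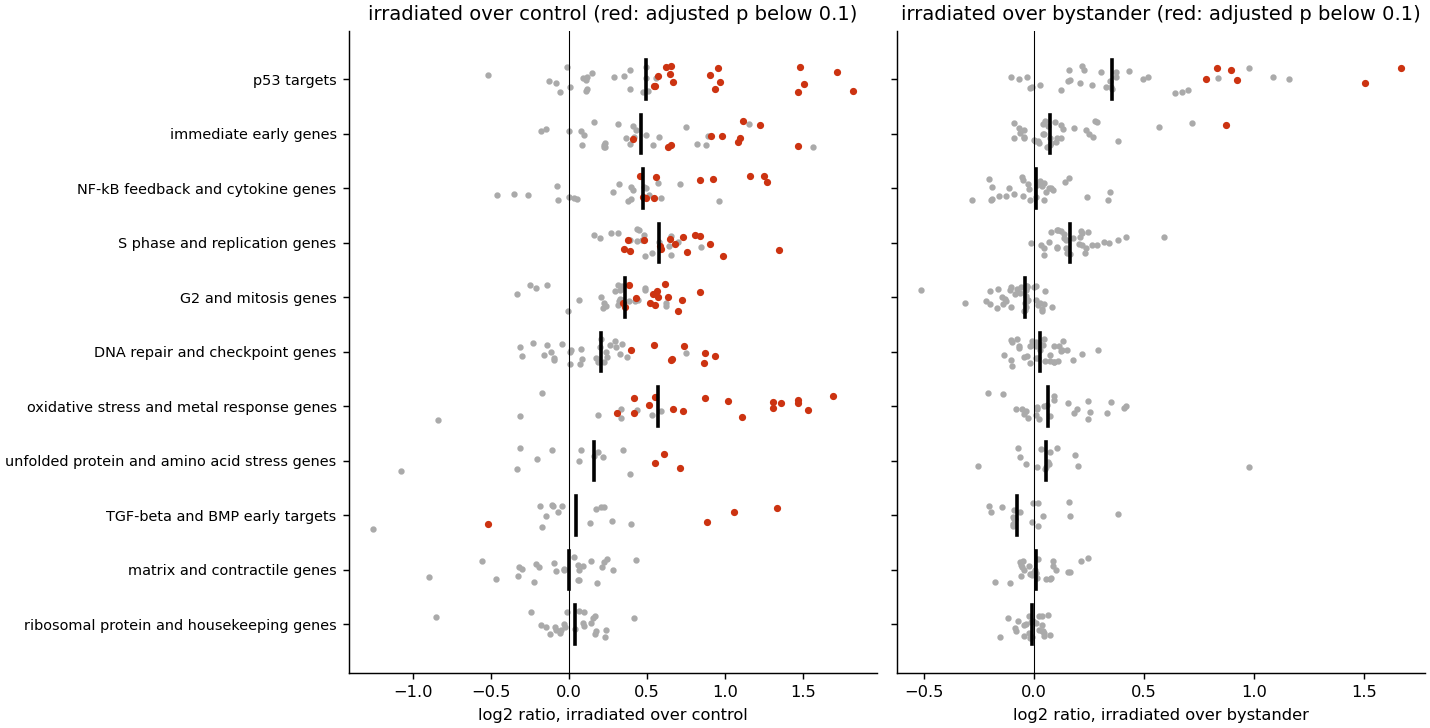
Log2 ratio of irradiated over control cells (left) and of irradiated over bystander cells (right), 1 point per tested gene of each of 11 lists, with red points at an adjusted p below 0.1 and black bars at list medians. The p53 list alone has more than 1 red point on the right, while the left panel has red points in 9 of the 11 lists.

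In the list of matrix and contractile genes 0 of 26 members passed and the median was 0.00, and in the ribosomal and housekeeping list 0 of 25 passed and the median was 0.04. With 3.97% of all genes higher and 2.79% lower, these counts are near the background. COL6A1, a collagen VI chain, had −0.03 (SE 0.19), TPM2, a tropomyosin, 0.07 (SE 0.11) and the elongation factor EEF1A1 0.04 (SE 0.13). Without scaling the medians of these lists were −0.38 and −0.34. In that fit 10 of the 26 and 9 of the 25 members were lower and 0 higher, beside 3842 of 13012 genes lower. Without experiment 4, 3 of the 26 and 8 of the 25 members were higher and 0 lower, beside 1649 higher and 1096 lower of 13012 genes.

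**Figure D4:**
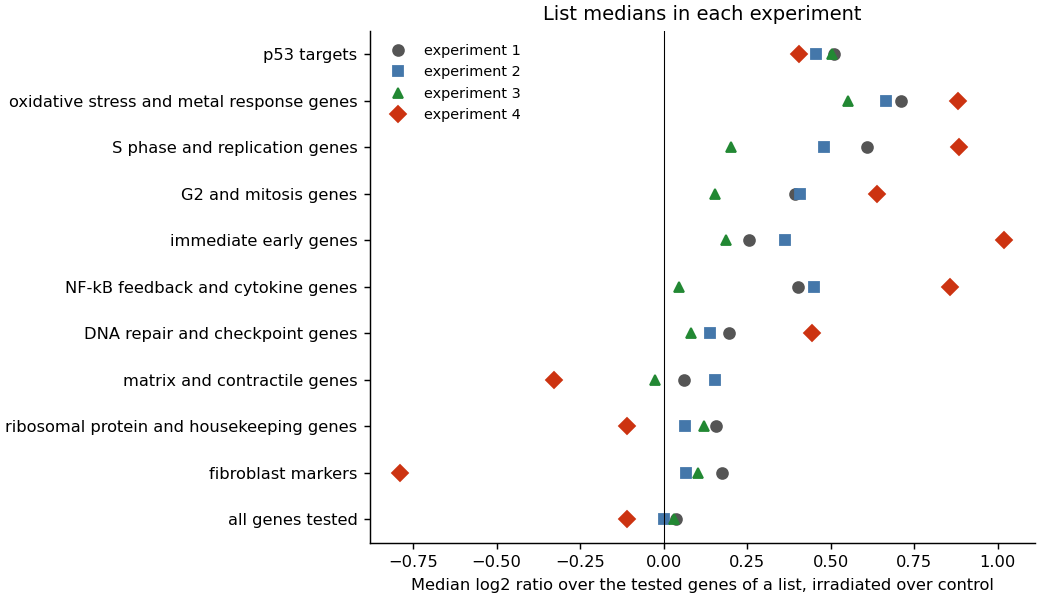
Median log2 ratio of irradiated over control cells (horizontal axis) of 10 gene lists and of all genes tested, 1 marker per experiment. The p53 list keeps its 4 medians between 0.41 and 0.51. Experiment 4 is furthest right for the immediate early and cytokine genes. Its median was also the highest for the S phase (0.89), oxidative stress and metal (0.88), G2 and mitosis (0.64) and DNA repair (0.44) lists. It is furthest left for the p53 (0.41), matrix (−0.33) and ribosomal (−0.11) lists, the fibroblast markers (−0.79) and all genes (−0.11).

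The 15 lowest genes ran from −1.43 to −0.94, each with its largest drop in experiment 4, where their median was −2.11 against −0.60, −0.59 and −0.75 in experiments 1 to 3. KCNK3, a background potassium channel, was at 7.89, 8.11, 9.24 and 7.04 in irradiated cells and at 8.75, 9.17, 10.17 and 9.90 in controls. The irradiated value was the lower within each experiment, the groups overlapped, and the mean ratio was −1.43 (SE 0.36, adjusted p = 0.077). TXNIP, which inhibits thioredoxin and glucose uptake, was at 13.98, 14.03, 13.53 and 12.29 against 14.52, 14.54, 14.31 and 14.23, with no overlap and a ratio of −0.94 (SE 0.23, adjusted p = 0.073). PTH1R, the receptor of parathyroid hormone, had −1.33 (adjusted p = 0.070), and SHISA3, which dampens Wnt and FGF signalling, −1.27 (adjusted p = 0.079).

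The others of the 15 were ZNF19 (−1.10), the adhesion protein TENM4 (−1.07), SLC35F6 (−1.06), BRINP3 (−1.06), the matrix protein PODN (−1.03), PTGIS, which makes prostacyclin (−0.99), ST8SIA1, which makes the ganglioside GD3 (−0.98), EGFL6 (−0.97), TBX4, a transcription factor of lung mesenchyme (−0.96), FAM200C (−0.95) and KBTBD3 (−0.94). In 8 of the 15 all irradiated arrays lay below all controls, which follows in part from their choice as the lowest called genes. None of the 15 passed without experiment 1, 2 or 3 or with the slide as a fixed block, and all 15 passed without experiment 4, where KCNK3 had −0.95 (adjusted p = 0.012) and TXNIP −0.60 (adjusted p = 0.0068). With only the irradiated and control arrays in the fit, none of the 676 lower probes passed (limma adjusted p = 0.199 for KCNK3 and 0.205 for TXNIP). Bystander cells had ratios of −1.23 to −0.46 to the same controls, and the smallest adjusted p between irradiated and bystander cells was 1.00. The dimmer probe of SLC35F6 gave −0.07 (adjusted p = 0.81) and that of KCNK3 −0.84 (adjusted p = 0.14), and neither was called. AP2B1 was also read differently by its probes, the brighter giving −0.17 and the other −1.97.

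**Figure D5:**
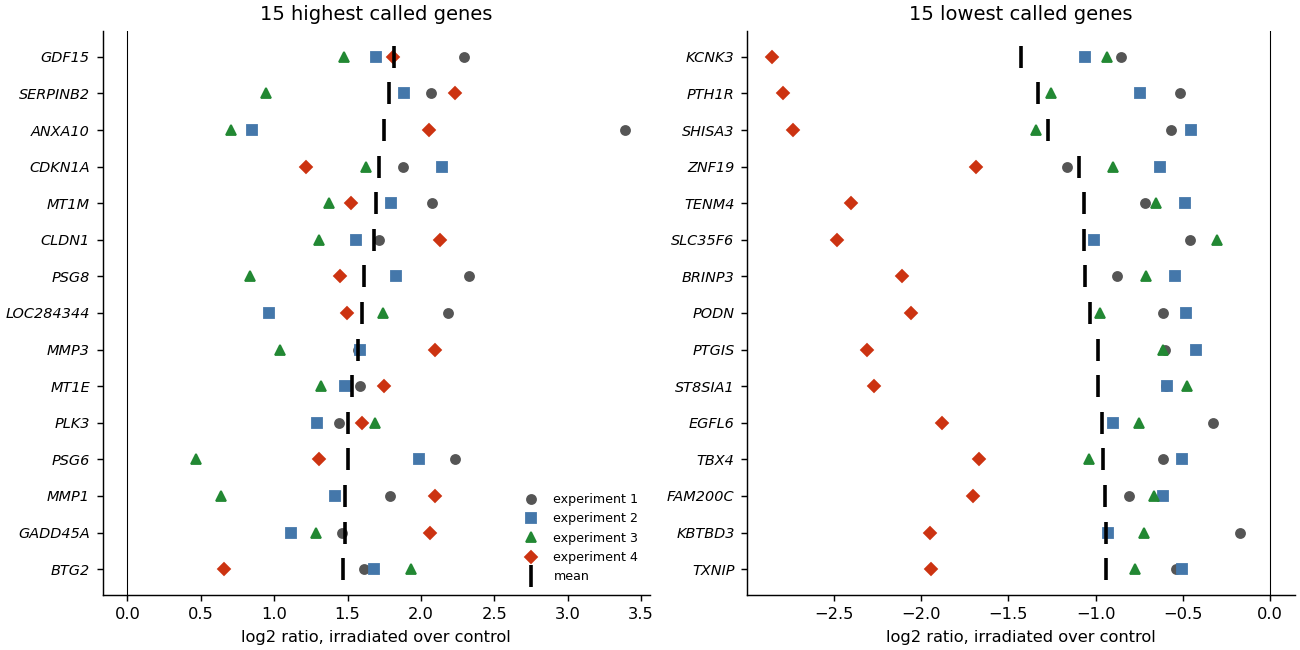
Log2 ratio of irradiated over control cells (horizontal axes) in each of the 4 experiments for the 15 highest (left) and 15 lowest (right) called genes, with a black bar at each mean. Experiment 4 gives the largest drop for all 15 lowest genes and the largest rise for 6 of the 15 highest.

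The ratios at 2 h were compared with those at 1 h and 4 h of the same experiments. Against 1 h, 0 of 25238 probes (0%) differed by limma, with 2212 at an unadjusted p below 0.05, and 52 passed without experiment 4. The p53 list had a median difference of 0.39 over its 1 h ratio, with 1.52 for GDF15, 1.29 for CDKN1A and 1.29 for BTG2, and the metallothionein MT1X had 0.61. From its 4 h ratio the p53 list had a median difference of −0.47, with −1.05 for GDF15 and −0.50 for CDKN1A. Against 4 h, 6 probes (0.0238%) differed. The cytokine IL33 was lower at 2 h than at 4 h, by −1.82 (SE 0.31, adjusted p = 0.038). NR1D1, a clock repressor (1.57, adjusted p = 0.0053), LOC729983 (1.29), MIDN (1.37), TOX (1.21) and SAPCD2 (1.14) were higher at 2 h. The cytokine list had a median difference of −0.62 from its 4 h ratio, with −1.56 for IL6 and −1.90 for CXCL8, neither of which passed, and the S phase list had 0.46. None of the 6 probes passed when experiment 1, 2 or 3 was left out or with centring on the spike-in probes, and without experiment 4 the comparison gave 62.

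Some probes below the filter were detected in 1 group only. Of 37 such probes 2 were well above background on all 4 irradiated and on no control array, and 35 on all control and on no irradiated array. SFTPB, a surfactant protein, was at least 2.75-fold higher after irradiation, and DAPK1, a death-associated kinase, at least 2.88-fold lower, and in the fit without the filter neither passed (adjusted p = 0.17 and 0.32). Each bound compares the mean of the detected group with the mean over the other arrays of the probe's own signal or, where higher, the lowest signal that counted as detected on that array. The irradiated arrays were dimmer, and its part in the uneven numbers was not tested.

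Fibroblast markers were all detected, and so were some markers of other cell types. All 12 fibroblast markers had a probe well above background on all 8 arrays, DCN being the brightest at 17.25. Epithelial markers did so in 4 of 10, endothelial markers in 5 of 8 and blood cell markers in 5 of 9. On single arrays 65.8% to 70.9% of all spots stood well above background. CDH1, KRT5, TIE1 and LYZ were never well above background. The summed log2 level of the fibroblast markers was 19.58, 19.60, 19.75 and 19.22 in irradiated cells and 19.62, 19.49, 19.66 and 19.93 in controls, lowest and highest in experiment 4. Of the 12, against 3.97% of all genes higher and 2.79% lower, FAP was higher (0.43, adjusted p = 0.049) and PDGFRB lower (−0.61, adjusted p = 0.098), each called in 1 of the 4 fits. The list median was −0.20, or 0.14 without experiment 4, where 3 members were higher and 2 lower. Without scaling 0 were higher and 9 lower, with a median of −0.58, beside 3842 of 13012 genes lower. With quantile normalisation 1 was higher and 3 were lower. Of 4 tested epithelial markers KRT15 was higher (0.65, adjusted p = 0.062), from a dim level. Of the 4 fits with an experiment left out, KRT15 passed in that without experiment 4. In that fit 3 of the 4 epithelial markers were higher and 0 lower, with a list median of 0.48, beside 0.33 with all experiments. The summed epithelial level was 9.81, 9.30, 9.63 and 9.86 in irradiated cells and 9.02, 9.05, 9.09 and 9.88 in controls, with SFTPC the brightest at 8.03, and its part in the results was not tested. None of 5 endothelial and 4 blood cell markers tested passed, with TEK at 0.08, KDR at −0.45, CD79A at 0.41 and CD68 at 0.13. Without experiment 4, where many genes passed, 2 blood cell markers were higher, with CD79A at 0.63 (adjusted p = 0.0050), and of the endothelial markers TEK was higher (0.20, adjusted p = 0.090) and KDR lower (−0.64, adjusted p = 0.023). The summed endothelial level was 13.50, 13.72, 13.48 and 12.82 in irradiated cells and 13.37, 13.47, 13.39 and 13.12 in controls. The summed blood cell level was 11.01, 10.61, 11.24 and 11.36 against 10.52, 10.23, 10.77 and 11.48.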

How the data were processed

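RNA of each culture had been labelled with Cy3 and hybridised to its own Agilent whole human genome array. The deposited files hold spot intensity from Feature Extraction 9.1.3.1, which the authors background-subtracted and detrended but did not normalise between arrays. The deposited table of the series holds log2 values of the same arrays, used only as an alternative. From the processed intensity, each array was scaled here to a 75th percentile of 1000, floored at 5 and taken to log2, since the arrays differed in brightness. Control spots were left out. As in the study's methods, probes dim or uneven on more than 10% of the 72 arrays were dropped, leaving 25238 of 41000 (dim means not flagged well above background). Gene names came from the files, updated through RefSeq by accession (25398 probes), symbol (2510) or synonym (789), while 12303 matched none.

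The 12 arrays of 2 h were fitted with limma 3.58.1 in R 4.3.3, with the experiment (replicate number) as a block, 6 residual degrees of freedom and a mean trend. Calls were made below an adjusted p of 0.1 (Benjamini-Hochberg, over all probes tested). Replicate numbers mark the 4 independent experiments of the methods. At 2 h, deviations from group means of same-numbered arrays correlated at 0.265 to 0.825 in 12 of 12 pairs. The number of arrays limits the precision. Ratios at 2 h were set against those at 1 h and 4 h in a fit over 36 arrays.

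A gene is represented by its probe of highest mean level. The genes named were the 15 highest and 15 lowest called with the same sign in all 4 experiments, up to 4 called members of each of 15 lists (or the 2 brightest members where none was called), the genes the study describes on their own with the metallothioneins, and the 5 of lowest p in each other comparison where called. Probes left out by the filter but detected in 1 group only are given as bounds. Other called list members are named to complete a list. A few genes are not reported here. The members, the lists and the tests were chosen with earlier results of these data known. The script was tested on simulated data. Tried as alternatives were no scaling, quantile, median and spike-in centring, normexp with an offset of 50, the deposited table, other filters, no block, fewer groups, the slide as a block, and leaving out each experiment.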

Additional observations from a re-analysis of the deposited data

Results flagged for a closer look

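In 8 of the 85 genes named, 1 of the 4 experiments lay far from the others in its log2 ratio of irradiated over control. Chance sets apart about 1 in 20 independent groups of equal spread, which is no measure for these genes, since many were chosen by their ratios and all share the 4 experiments. Experiment 4 was the distant one in 7 of them. It was far below the others for KCNK3 (−2.86), TENM4 (−2.40), PTGIS (−2.31), ST8SIA1 (−2.27) and COL6A1 (−0.60), and far above them for CENPE (1.54) and INHBA (1.93). CDT1 was set apart by a low ratio in experiment 3 (0.47).

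The irradiated ratio at 2 h differed from that at 4 h, by the limma test of the difference, for 6 probes. The 2 h ratio minus the 4 h ratio was 1.29 for LOC729983, 1.57 for NR1D1, −1.82 for IL33, 1.21 for TOX, 1.37 for MIDN and 1.14 for SAPCD2. LOC729983 and TOX were named here after their values were seen.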

How the results depend on the processing

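The count of probes differing between irradiated and control cells, 1452 as reported, was 6912 without scaling (68 higher, 6844 lower), 162 with spike-in centring (141, 21), 528 with normexp (321, 207), 920 without the filter on dim probes (507, 413), 34 with only the 2 groups in the fit (34, 0) and 31 with the slide as a fixed block (30, 1). It stayed within 1.5 times with quantile normalisation, median centring, the deposited log2 table, the filter on the 2 h arrays and the slide as a random block. Leaving out 1 experiment gave 25 to 4915 in all, 25 to 2781 higher and 0 to 2134 lower. With no replicate block 2 probes passed for irradiated against control (2 higher, 0 lower), 0 for irradiated against bystander and 0 for 2 h against 4 h.

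Irradiated against bystander cells gave 11 probes, but 2 without scaling, 5 without the filter, 28 with only the 2 groups in the fit, 0 with the slide as a fixed block and 0 to 19 with an experiment left out. Bystander against control cells gave 54 probes, but 377 with normexp, 159 without the filter, 0 without scaling, with the slide as a fixed block or with no replicate block, and 0 to 3101 with an experiment left out. For 2 h against 1 h, leaving out an experiment gave 0 to 52. For 2 h against 4 h the 6 probes became 2 without scaling, 3 with quantile normalisation, 0 with spike-in centring, 1 with normexp, 4 with median centring and 0 to 62 with an experiment left out. The cause of these shifts was not tested, beyond the fewer arrays in some fits.

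Of the 85 genes named, 69 were called, and none of those changed sign under any alternative. Among those not called, signs reversed without scaling for TPM2 (−0.31), EEF1A1 (−0.34), TEK (−0.30), CD68 (−0.25), CXCL2 (−0.0033), CXCL5 (−0.10), NR1D1 (−0.0274), MIDN (−0.26) and SAPCD2 (−0.0445). Of these reversed values that of EEF1A1 passed as lower (adjusted p = 0.067, limma). Of the 16 genes not called, 3 were newly called without scaling and 5 without experiment 4. Quantile normalisation reversed TPM2 (−0.0176) and EEF1A1 (−0.00566), leaving out experiment 1 reversed TPM2 (−0.00277, up to 0.15 without experiment 4) and EEF1A1 (−0.00809, up to 0.13), the slide as a fixed block reversed TEK (−0.0079), and COL6A1 reversed with spike-in centring (0.0718) and without experiment 4 (0.16). The calls kept were 47 of 69 without scaling, 41 with spike-in centring, 49 with normexp, 40 without the filter, 21 with only the 2 groups, 18 with the slide as a fixed block, 2 with no block, and 16, 16, 27 and 69 without experiments 1, 2, 3 and 4. Ratios of probes near background, such as ANXA10 (SE 0.40) and KRT15 (SE 0.15), call for caution. Some brighter genes also had a large SE, such as KCNK3 (0.36) and SHISA3 (0.32).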

Other observations

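Groups of genes outside the lists were noticed after their values were seen and are given as values only. Of 422 tested genes with ZNF or ZFP symbols, most of which encode zinc finger proteins, 2 were higher and 30 lower in irradiated cells, 297 had a negative ratio, and the median log2 ratio was −0.10, beside −0.01 for all genes, of which 3.97% were higher and 2.79% lower. The median was −0.19, −0.14, −0.05 and −0.12 in experiments 1 to 4. With centring on the spike-in probes it was −0.0019, beside 0.10 for all genes. Without scaling it was −0.49, beside −0.39 for all genes. No member was called without experiment 1, 2 or 3, and 97 were called without experiment 4, a fit in which 1649 of all 13012 genes were higher and 1096 lower.

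Of 23 H3 and H4 genes of the replication-dependent histone clusters 7 were higher and 0 lower, against 3.97% and 2.79% of all genes, with a median of 0.39. Of 30 H2A and H2B cluster genes 0 were higher and 1 lower, with a median of −0.14. In experiment 4 these medians were −0.03 and −0.77. Without scaling they were 0.005 and −0.52, beside −0.39 for all genes. With spike-in centring they were 0.49 and −0.03, beside 0.10 for all genes. Cluster histone genes resemble each other in sequence, so probes may share transcripts. No member of either group was called without experiment 1, 2 or 3, and 13 and 5 were called without experiment 4, where many genes passed as given above. The difference between the groups was not tested.

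Of 14 keratin-associated protein genes 2 were higher and 0 lower, against 3.97% and 2.79% of all genes. The median was 0.36, with medians of 0.72, 0.33, 0.38 and −0.07 in experiments 1 to 4. It became −0.02 without scaling and 0.47 with spike-in centring, beside −0.39 and 0.10 for all genes. They too are close copies. None was called without experiment 1, 2 or 3, and 7 were called without experiment 4, with the same background.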
